A study of Mus musculus with 5 samples.

Results

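Iron storage and transport genes of the mouse mammary gland were described here as a set of 10 genes: Fth1, Ftl1, Trf, Tfrc, Cp, Hamp, Ltf, Slc40a1, Slc11a2 and Heph. Each was represented by the probe set (the probes that together measure a transcript) with the highest mean among those annotated to that gene alone, and all 10 were found among the 19938 genes measured. The members were chosen by their expression values in cyclin D1 against control glands, which had been seen beforehand, so their values in that contrast are a description and carry no test. The 3 cyclin D1 samples came from FvB/N female mice carrying rtTA together with a CCND1 transgene, and the 2 control samples from females of the same strain carrying rtTA alone. All mice were 8 weeks old, and each array held mammary gland RNA of a separate mouse. rtTA, the reverse tetracycline transactivator, is present in both groups; it is driven by the MMTV promoter, which is active mainly in mammary epithelium, and it switches on the responder transgene when doxycycline is given. The treatment label gives 7 days of doxycycline but names a KE mutant of CCND1, which the sample titles do not, and it does not say whether control mice received the drug. If they did not, effects of the drug and of the transgene cannot be told apart. The question was how acute cyclin D1 expression changes the transcripts of the gland.

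Cells take up iron mainly as transferrin bound to the transferrin receptor, store it inside ferritin shells built from heavy and light chains, and release it through ferroportin, the only known cellular iron exporter. Hepcidin, a peptide hormone made chiefly by liver, binds ferroportin and causes its breakdown, and copper ferroxidases such as ceruloplasmin and hephaestin oxidise the released iron so that transferrin can carry it. In the mammary gland, epithelial cells also secrete transferrin and lactoferrin into milk. Ferritin and transferrin receptor are controlled to a large extent after transcription, by iron regulatory proteins that bind their messenger RNAs, and an expression array measures messenger RNA only.

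The array of control 1 stood apart from the other 4 over all genes, which touches every value below. The SD of log2 expression across genes was 1.20 to 1.38 on the cyclin D1 arrays, against 0.735 on the array of control 1 and 0.926 on that of control 2. Across genes, r was 0.955 to 0.962 between cyclin D1 arrays, whereas control 1 correlated at 0.701 to 0.743 with them and at 0.779 with control 2. For control 2, r was 0.841 to 0.884 against cyclin D1 arrays, so it lay closer to those than to control 1. Bright genes therefore tended to be higher and dim genes lower in cyclin D1 glands. For this reason the difference of each member is given as deposited, after quantile normalization of the 5 arrays again (here "renormalized"), and against control 2 alone, and those of other named iron genes, unless they lie at the floor, as deposited and renormalized. Values are log2 expression, and a difference is always cyclin D1 minus control. Luminal and alveolar epithelial markers also moved with the groups: 5 of 11 measured rose and 0 fell (limma adjusted p under 0.05 over all genes). Of all genes 5.38% rose and 0.687% fell. Many of these markers lie in the brightest 10% of genes by mean over the 5 arrays, where 36.0% of genes rose. The summed linear level of the markers was 8930 to 11318 in cyclin D1 glands against 2292 to 4084 in control glands. Renormalized, 0 of the 11 passed and 9 were positive. Krt8 and Krt18, keratins that define luminal cells, lay above the floor on every array, and the sign of Krt18 turned, with 0.92 as deposited and -0.55 renormalized. In RNA of a bulk gland, more cells of a type and more RNA per cell cannot be told apart.

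Promoter sequences are shown for 5 members: both ferritin chains, which gave unlike values, and Cp, Ltf and Hamp, whose groups did not overlap. They were taken from the RefSeq annotation of build GRCm38.p6, where 6 of the 10 members had an entry, and each runs from 250 bases before to 50 bases after a transcription start, 5′ to 3′ on the gene's strand. Capitals mark a CCAAT box, a TATAAA core or the TTCNNNGAA element that STAT proteins bind, each on either strand. For Fth1 and Cp, which have 2 listed starts, the window with a CCAAT box is shown.
Fth1, chr19:9982396-9982695, plus strand: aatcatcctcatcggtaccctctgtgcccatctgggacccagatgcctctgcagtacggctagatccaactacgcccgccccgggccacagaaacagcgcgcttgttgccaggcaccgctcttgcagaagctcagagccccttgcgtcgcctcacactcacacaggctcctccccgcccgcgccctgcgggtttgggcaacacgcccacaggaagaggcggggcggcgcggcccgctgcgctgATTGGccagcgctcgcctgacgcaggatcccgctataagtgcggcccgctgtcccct
Ftl1, chr7:45459837-45460136, minus strand: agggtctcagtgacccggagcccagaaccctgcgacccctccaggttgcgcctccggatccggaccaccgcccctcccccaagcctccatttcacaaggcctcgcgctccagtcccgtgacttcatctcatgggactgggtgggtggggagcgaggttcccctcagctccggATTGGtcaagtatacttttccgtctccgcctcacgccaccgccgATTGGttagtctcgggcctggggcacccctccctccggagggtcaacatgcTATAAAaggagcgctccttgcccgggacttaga
Cp, chr3:19956999-19957298, plus strand: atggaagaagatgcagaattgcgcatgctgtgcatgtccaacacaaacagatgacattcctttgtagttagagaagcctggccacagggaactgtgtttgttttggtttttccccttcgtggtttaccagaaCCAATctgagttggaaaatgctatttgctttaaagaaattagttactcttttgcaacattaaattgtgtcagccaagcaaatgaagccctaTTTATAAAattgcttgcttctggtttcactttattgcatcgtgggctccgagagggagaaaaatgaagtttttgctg
Ltf, chr9:111019042-111019341, plus strand: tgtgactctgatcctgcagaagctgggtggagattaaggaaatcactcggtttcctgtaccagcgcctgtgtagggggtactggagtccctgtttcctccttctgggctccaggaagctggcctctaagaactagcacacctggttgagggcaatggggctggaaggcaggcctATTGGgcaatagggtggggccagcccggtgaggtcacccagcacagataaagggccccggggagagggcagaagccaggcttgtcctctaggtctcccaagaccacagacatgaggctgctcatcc
Hamp, chr7:30943980-30944279, minus strand: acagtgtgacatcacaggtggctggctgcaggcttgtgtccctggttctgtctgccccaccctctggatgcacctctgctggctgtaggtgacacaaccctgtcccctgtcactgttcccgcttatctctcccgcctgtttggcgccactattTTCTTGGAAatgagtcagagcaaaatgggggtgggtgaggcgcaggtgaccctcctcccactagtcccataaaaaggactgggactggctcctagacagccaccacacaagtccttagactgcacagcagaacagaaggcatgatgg
G and C made up 67.0% of the Fth1 window shown, 36.7% of the other Fth1 window, 63.7% of the Ftl1 window and 40.0% of the Cp window shown, against a median of 52.7% over 32851 mouse promoter windows. CCAAT was found in 5 of the 9 member windows, against 37.4% of all windows, and TATAAA in 3 of 9, against 13.6%. The pair of TATAAA matches in Cp overlap each other on opposite strands. The Hamp window was the only member window with TTCNNNGAA, at position -97 from the start, and 8.30% of all windows hold it. ACGTG, the core bound by hypoxia-inducible factors, was found in both Tfrc windows, which overlap and share that site, against 19.6% of all windows. The E-box CACGTG, which contains ACGTG, and TGACNNNGC, the core of the antioxidant response element, were found in 0 of the 9 windows and in 7.15% and 12.4% of all windows. These matches are letters in a window and were not tied to the expression values.

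Ferritin heavy chain, transferrin, lactoferrin, ceruloplasmin and transferrin receptor stood much higher in cyclin D1 glands, and hepcidin stood lower. Ferroportin, which was dim, differed by 0.73 without overlap of the groups. Slc11a2 and hephaestin, also dim, differed by 0.04 and -0.04. Between the groups the values of 6 members did not overlap with the cyclin D1 side higher, where 22.4% of all genes showed that order, and those of 1 member with the cyclin D1 side lower, against 22.6% of all genes; renormalized, the counts were 6 against 20.1% and 1 against 19.5%. In the limma fit 4 members were called higher, with 5.38% of all genes called higher, and 1 lower, with 0.687% of all genes called lower. The 4 were Fth1, Trf, Cp and Ltf and the 1 was Hamp; 0 higher and 1 lower, Hamp, were called after renormalization, and 0 and 0 were called without control 1, without cyclin D1 replicate 1 or without cyclin D1 replicate 2. Because this contrast chose the members, nothing is read from these counts. The median difference over the 10 members was 1.83 as deposited and 1.48 renormalized, against -0.05 and -0.02 over all genes.

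**Figure D1:**
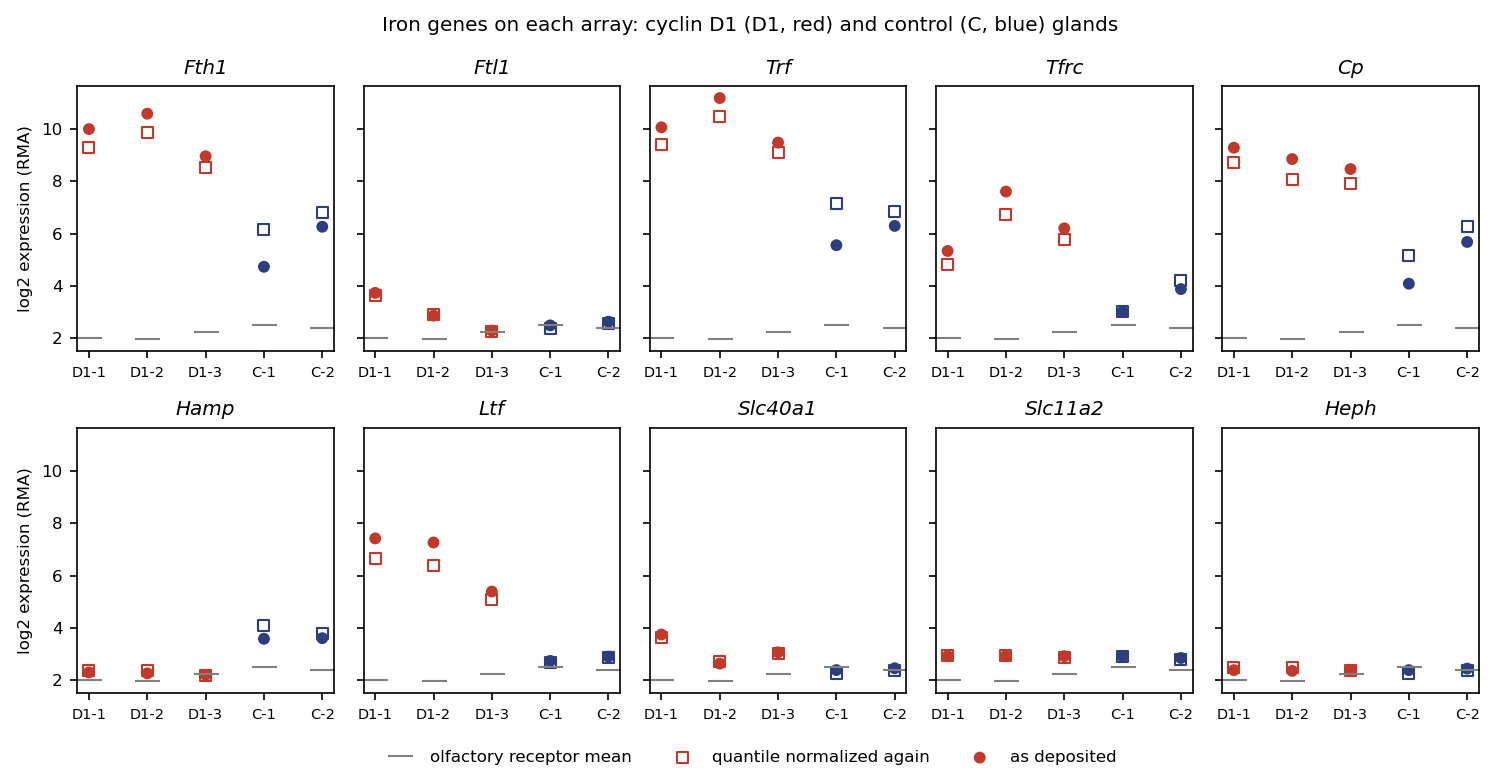
Log2 expression of the 10 iron genes on each array, with the 3 cyclin D1 glands (D1, red) left of the 2 control glands (C, blue). Filled circles are values as deposited, open squares are renormalized values and grey dashes are a rough floor, the average over olfactory receptor genes of that array. Fth1, Trf, Cp, Ltf and Tfrc lie higher on every D1 array than on either C array, and Hamp lies lower.

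Fth1 encodes the ferritin heavy chain, which carries the ferroxidase activity of the shell. Its log2 expression was 9.98, 10.57 and 8.95 in cyclin D1 glands, against 4.73 in control 1 and 6.26 in control 2. All 3 cyclin D1 values lay above both control values, with 2.69 between the closest pair. The mean was 9.83 ± 0.82 (SD, n = 3) in cyclin D1 glands and 5.50 ± 1.08 (SD, n = 2) in control glands, a difference of 4.34 (SE 0.64) or 20.2-fold. Against control 2 alone the difference was 3.57, and renormalized it was 2.74 (SE 0.43), with 9.28, 9.87 and 8.54 in cyclin D1 glands and 6.15 and 6.82 in control glands. The group difference thus exceeded the spread within either group on both scales, although the controls themselves differed by 1.53 as deposited.

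Ftl1 encodes the light chain, which helps form the iron core of ferritin. The probe set annotated to Ftl1 alone (10447591) was dim, at 3.74, 2.87 and 2.30 in cyclin D1 glands against 2.50 and 2.64 in control glands. Control 1 lay below the rough floor of its array, 2.52. The groups overlapped, since cyclin D1 replicate 3 was the lowest of the 5 values, and the difference of 0.40 (SE 0.42) was within the error. It was 0.46 (SE 0.40) renormalized and 0.33 against control 2 alone. Without cyclin D1 replicate 1 the difference was 0.02, so what difference there was rested on that mouse. A further 4 probe sets are shared between Ftl1 and the microRNA genes Mir692-2 and Mir692-3. The brightest of them (10563295) read 6.70, 5.49 and 4.87 in cyclin D1 glands against 4.12 and 5.34 in control glands, again with overlapping groups. Its difference was 0.96, and the other shared probe sets differed by 1.14, 0.67 and 0.16. All 5 Ftl1 probe sets read highest in cyclin D1 replicate 1, whereas Fth1 was highest in cyclin D1 replicate 2. Ferritin genes have closely related copies in the mouse genome, so the share of signal from such copies in any of these probe sets is uncertain.

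**Figure D2:**
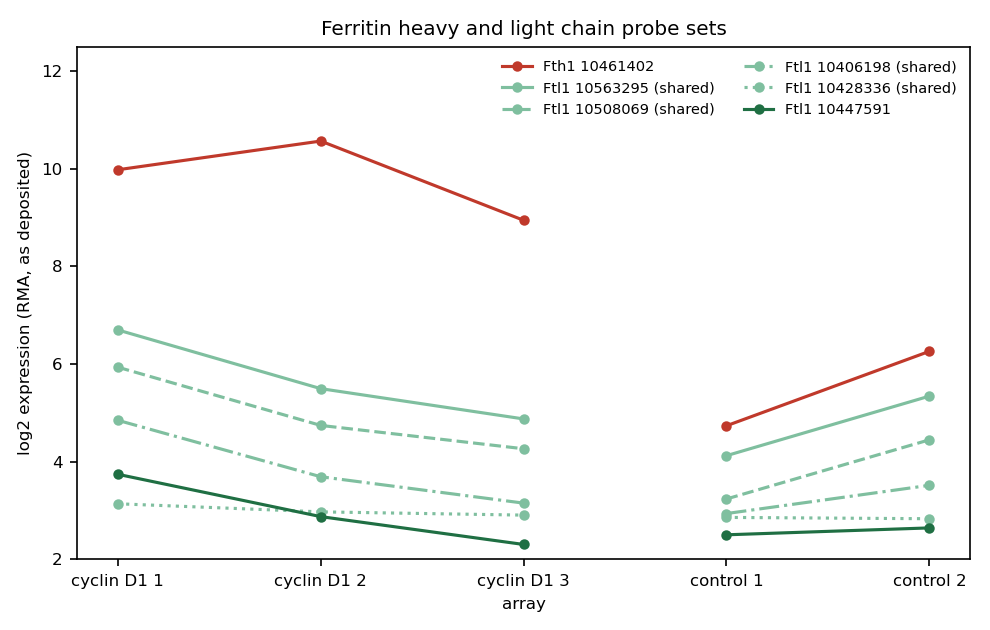
Log2 expression as deposited for the Fth1 probe set (red) and the 5 Ftl1 probe sets (dark green, annotated to Ftl1 alone; light green, shared with other genes) on the 3 cyclin D1 arrays, left, and the 2 control arrays, right. Fth1 separates the groups, with 8.95 as its lowest cyclin D1 value and 6.26 as its highest control value, while cyclin D1 and control values of every Ftl1 probe set except the dim 10428336 overlap.

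Trf encodes transferrin, the iron carrier of plasma, which mammary epithelium also secretes. It read 10.05, 11.17 and 9.47 in cyclin D1 glands, against 5.55 and 6.29 in control glands. The groups did not overlap, with 3.18 between the closest pair of values as deposited. The difference was 4.31 (SE 0.54), or 19.8-fold, and 3.94 against control 2 alone. Renormalized values were 9.39, 10.48 and 9.10 in cyclin D1 glands and 7.16 and 6.85 in control glands, a difference of 2.65 (SE 0.43). The order of the controls turned round with the renormalization, so which control is higher for Trf depends on the scaling.

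Ltf encodes lactoferrin, a homologue of transferrin that is secreted into milk and stored in neutrophil granules. It read 7.42, 7.26 and 5.39 in cyclin D1 glands, against 2.74 and 2.91 in control glands. The control values lay close to the rough floor of 2.52 on the array of control 1 and 2.38 on that of control 2, and all 3 cyclin D1 values were well above it, with replicate 3 the lowest. The difference was 3.86 (SE 0.64), 3.78 against control 2 alone and 3.27 (SE 0.48) renormalized. Of the members that stood higher by more than 1 on the log2 scale, Ltf changed least with the scaling. Of 9 neutrophil markers, 0 were called in either direction by limma and 0 had an unadjusted p under 0.05. Their summed linear level was 41.5 to 50.6 in cyclin D1 glands against 51.4 to 56.0 in control glands, and S100a8 lay at or below the floor on all 5 arrays. The means of the 9 over the 5 arrays were 1.94 to 2.74, near the floor of 1.97 to 2.52. The sum is therefore largely background, and nothing about neutrophils is read from it.

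Tfrc encodes the transferrin receptor, which brings iron-loaded transferrin into the cell and is abundant on dividing cells. With Ltf it was among the most variable members in cyclin D1 glands, at 5.34, 7.60 and 6.20 (SD 1.14, n = 3), against 3.01 and 3.88 in control glands (SD 0.62, n = 2). The groups did not overlap, with 1.45 between the closest values. The difference was 2.93 (SE 0.69), or 7.63-fold, 2.49 against control 2 alone and 2.15 (SE 0.63) renormalized. Tfrc and Trf were both highest in cyclin D1 replicate 2, but their lowest cyclin D1 values were in different mice.

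Cp encodes ceruloplasmin, the multicopper ferroxidase of plasma, and Heph its membrane-bound relative hephaestin, known for intestinal iron export. Cp read 9.27, 8.84 and 8.46 in cyclin D1 glands, against 4.09 and 5.68 in control glands. The cyclin D1 values were close together, while the controls differed by 1.59, the widest gap between controls among the members. The Cp difference was 3.97 (SE 0.51), or 15.7-fold, 3.18 against control 2 alone and 2.50 (SE 0.40) renormalized. Heph read 2.39, 2.37 and 2.39 in cyclin D1 glands against 2.39 and 2.45 in control glands. Control 1 lay below the floor of its array, 2.52, and control 2 close to its own, 2.38, so Heph was near background there. The Heph difference of -0.04 (SE 0.12) turned to 0.13 (SE 0.14) when renormalized and was -0.07 against control 2 alone.

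Slc40a1 encodes ferroportin, and Slc11a2 encodes DMT1, the divalent metal transporter that moves iron across the apical gut membrane and out of endosomes. Slc40a1 was dim, at 3.75, 2.64 and 3.07 in cyclin D1 glands against 2.40 and 2.47 in control glands. The groups did not overlap, but only by 0.18, and control 1 lay below the floor. The Slc40a1 difference was 0.73 (SE 0.33), 0.69 against control 2 alone and 0.81 (SE 0.29) renormalized. Slc11a2 read 2.93, 2.94 and 2.93 in cyclin D1 glands against 2.93 and 2.86 in control glands. Its deposited value was the same to every digit on 3 arrays, cyclin D1 replicates 1 and 3 and control 1, as was found for 974 of the 19938 genes (4.89%). The Slc11a2 difference of 0.04 (SE 0.12) was smaller than its error, as was that of 0.07 (SE 0.13) renormalized, and against control 2 alone it was 0.07.

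Hamp, the hepcidin gene, was the one member with clearly lower values in cyclin D1 glands. It read 2.31, 2.27 and 2.22 there, against 3.59 and 3.61 in control glands. Both groups were tight, with an SD of 0.05 (n = 3) in cyclin D1 glands and 0.02 (n = 2) in control glands, and 1.28 separated them at the closest. The difference was -1.34 (SE 0.12), -1.35 against control 2 alone and -1.61 (SE 0.16) renormalized. With each array centred on its median it was -1.27, so its size moved with the scaling while its sign did not. Of the 3 cyclin D1 values 1 was at or below the floor, which makes the size of the difference inexact. Hamp2, a closely related hepcidin gene of the mouse and here named after its values were seen, read 4.32, 4.47 and 5.44 in cyclin D1 glands against 4.21 and 5.72 in control glands. Its groups overlapped, with a difference of -0.22 (SE 0.55, limma adjusted p = 0.822). Renormalized, the Hamp2 groups did not overlap and the difference was -1.42 (SE 0.44, limma adjusted p = 0.187), so the size depends on the scaling.

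**Figure D3:**
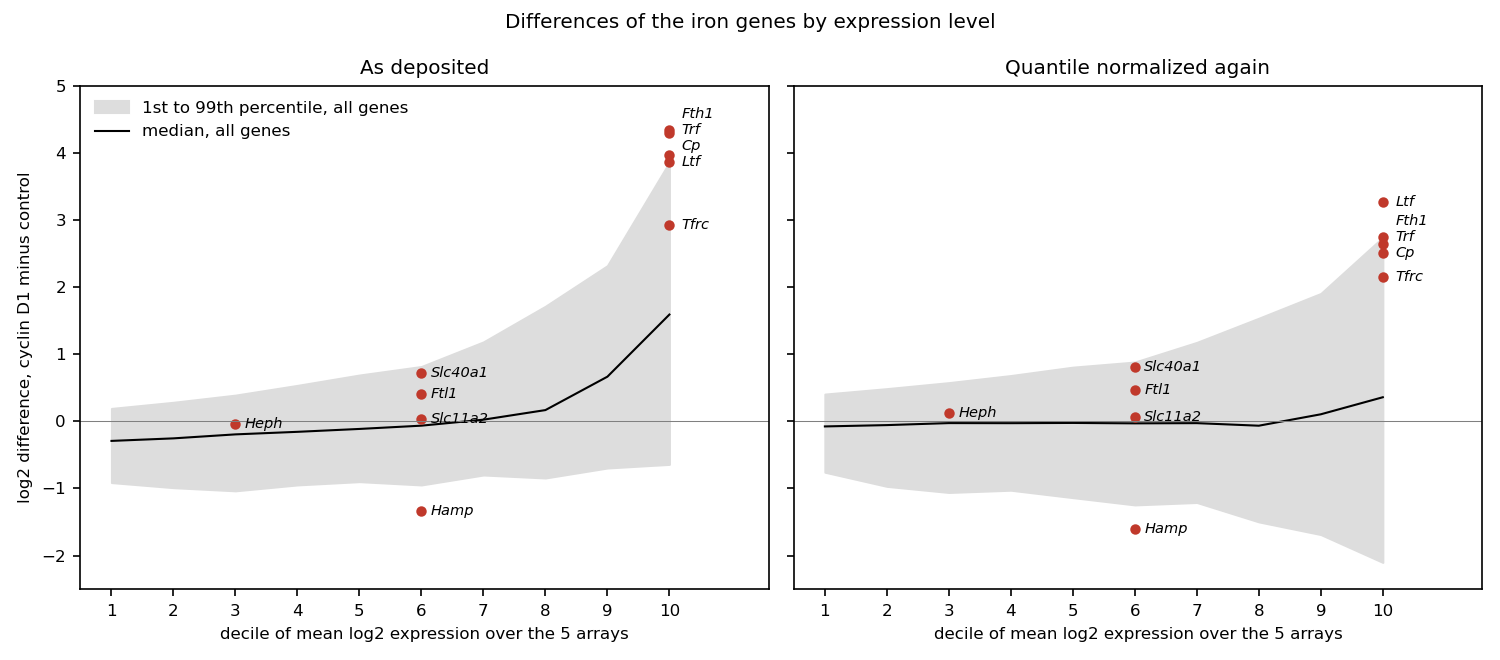
Log2 difference, cyclin D1 minus control, of the 10 iron genes (red points) by the decile of mean log2 expression that holds them, as deposited (left) and renormalized (right). The line is the median of all genes in the decile and the grey band runs from their 1st to their 99th percentile. The deciles use the mean over all 5 arrays, cyclin D1 values included. The 5 genes of the brightest decile sit lower on the renormalized side than on the deposited one, and Hamp lies below 0 on both.

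The members were also placed by their mean expression over all 5 arrays, in deciles of all genes. That mean holds the cyclin D1 values, so a member that is high there is moved up by its own difference: Ltf, with a control mean of 2.83, and Tfrc, with 3.45, reached the highest decile, which begins at 4.44, only through the cyclin D1 glands. The placement is a description, and nothing is read from where a member lies against its decile. Fth1, Trf, Cp, Ltf and Tfrc belonged to the highest decile, where the median difference was 1.59 as deposited and 0.36 renormalized and 36.0% of genes were called higher. Ftl1, Hamp, Slc40a1 and Slc11a2 belonged to the sixth decile, with a median difference of -0.06 and a range from the 1st to the 99th percentile of -0.95 to 0.82. Heph belonged to the third decile, with a range of -1.03 to 0.39.

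Other genes of iron handling were listed by role and tested in the same fit over all genes. Of 77 listed, 72 were measured, and 8 of them rose and 0 fell (limma adjusted p under 0.05). At an unadjusted p under 0.05, 19 of the 72 were higher and 2 lower, against 3235 and 2009 of all 19938 genes. At the adjusted threshold 5.38% of all genes rose, and that share was larger among bright genes, at 36.0% in the highest decile. The lists were also chosen with earlier results of these data known, so no enrichment is read from these shares. The median difference was 0.13, against -0.05 over all genes. After renormalization 0 of the 72 passed in either direction, where limma called 0.256% of all genes higher and 0.105% lower, and the median was 0.04. At an unadjusted p under 0.05, 12 of the 72 were then higher and 5 lower, against 1861 and 1875 of all 19938 genes. By limma, 0 of the 72 passed without cyclin D1 replicate 1 or without cyclin D1 replicate 2. At an unadjusted p under 0.05, 17 and 18 of them were then higher and 1 and 1 lower. Of all genes 3568 and 3491 then had such a p, in either direction. Without cyclin D1 replicate 3, 2 of the 72 passed by limma. At an unadjusted p under 0.05, 21 were then higher and 2 lower, against 4711 of all genes in either direction. Without control 1, which leaves 1 control, the median difference of the 72 was 0.13.

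Of 6 genes listed for iron sensing inside the cell, not all of them sensors, 3 rose as deposited and 0 fell. Their median difference was 1.26 as deposited and 0.08 renormalized. Ireb2, which encodes iron regulatory protein 2, read 5.69, 6.16 and 5.50 in cyclin D1 glands against 3.68 and 3.03 in control glands, a difference of 2.43 (limma adjusted p = 0.0205). Aco1, which encodes iron regulatory protein 1, an aconitase when it holds an iron-sulphur cluster, rose by 1.17 (adjusted p = 0.0413). Cul1, a scaffold of the ubiquitin ligase that degrades iron regulatory protein 2, rose by 1.41 (adjusted p = 0.0213). Renormalized, Ireb2 differed by 1.57, Aco1 by 0.25 and Cul1, with the opposite sign, by -0.23. The other 3 of that list, Fbxl5, Skp1 and Epas1, did not pass and are named only to complete it. Epas1, which encodes a hypoxia-inducible factor, differed by 0.10 as deposited (limma adjusted p = 0.696) and by -0.98 renormalized, where its groups did not overlap (adjusted p = 0.063).

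Among 4 genes of ferritin handling 1 rose and 0 fell, with a median of 1.01 as deposited and 0.07 renormalized. Pcbp2, a chaperone that hands iron to ferritin and also binds RNA, read 6.56, 6.63 and 6.16 in cyclin D1 glands against 4.23 and 4.36 in control glands. The Pcbp2 difference was 2.15 (limma adjusted p = 0.0165) and 0.65 renormalized. Ncoa4, the receptor that takes ferritin to lysosomes, differed by 1.52 without passing (adjusted p = 0.0626) and by 0.22 renormalized.

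Of 8 secreted binders and hormones 1 rose and 0 fell, and the median was -0.24. The riser was Lcn2, lipocalin 2, which binds iron-carrying siderophores and is a defence protein of epithelia. It read 8.36, 8.56 and 6.39 in cyclin D1 glands against 3.46 and 2.96 in control glands, with replicate 3 the lowest of the cyclin D1 glands as for Ltf. The Lcn2 difference was 4.56 (limma adjusted p = 0.0312) and 3.71 renormalized. Bmp6, a ligand that induces hepcidin in liver, differed by -0.49 (adjusted p = 0.139) and by -0.73 renormalized.

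Of 10 receptors and sensors of uptake 1 rose and 0 fell. Neo1, neogenin, a binding partner of hemojuvelin with other roles in tissue guidance, rose by 2.02 (limma adjusted p = 0.0452), and Timd2, a receptor for ferritin heavy chain in the mouse, differed by 0.83 (adjusted p = 0.115). Renormalized, Neo1 differed by 1.44 and Timd2 by 0.81. Of 10 transporters, reductases and ferroxidases 0 passed by limma in either direction. At an unadjusted p under 0.05, 2 were higher and 0 lower, against 3235 and 2009 of all 19938 genes. Slc39a14, a zinc and iron importer, lay at or below the floor in both controls and was higher by at least 0.78 (adjusted p = 0.0687). Its relative Slc39a8 read 5.27, 7.03 and 4.26 in cyclin D1 glands against 3.32 and 3.60 in control glands, a difference of 2.06 (adjusted p = 0.179) and 1.38 renormalized.

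Of 17 haem genes 1 rose and 0 fell, with a median of 0.08. Abcg2, an exporter of haem, porphyrins and many drugs that also carries riboflavin into milk, read 6.11, 7.41 and 6.27 in cyclin D1 glands against 3.48 and 3.17 in control glands. The Abcg2 difference was 3.27 (limma adjusted p = 0.0232) and 2.42 renormalized. Flvcr1, listed as a haem exporter, differed by 0.95 (adjusted p = 0.0661) and by 0.05 renormalized. Of 17 genes of iron-sulphur cluster assembly 1 rose and 0 fell, with a median of 0.28 as deposited and 0.25 renormalized. Isca2, an assembly factor in mitochondria, rose by 1.12 (adjusted p = 0.0463), and the mitochondrial chaperone gene Hspa9 differed by 3.53 (adjusted p = 0.0574), with 3.20 in control 1 and 5.59 in control 2. Renormalized, Isca2 differed by 0.91 and Hspa9 by 2.44.

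**Figure D4:**
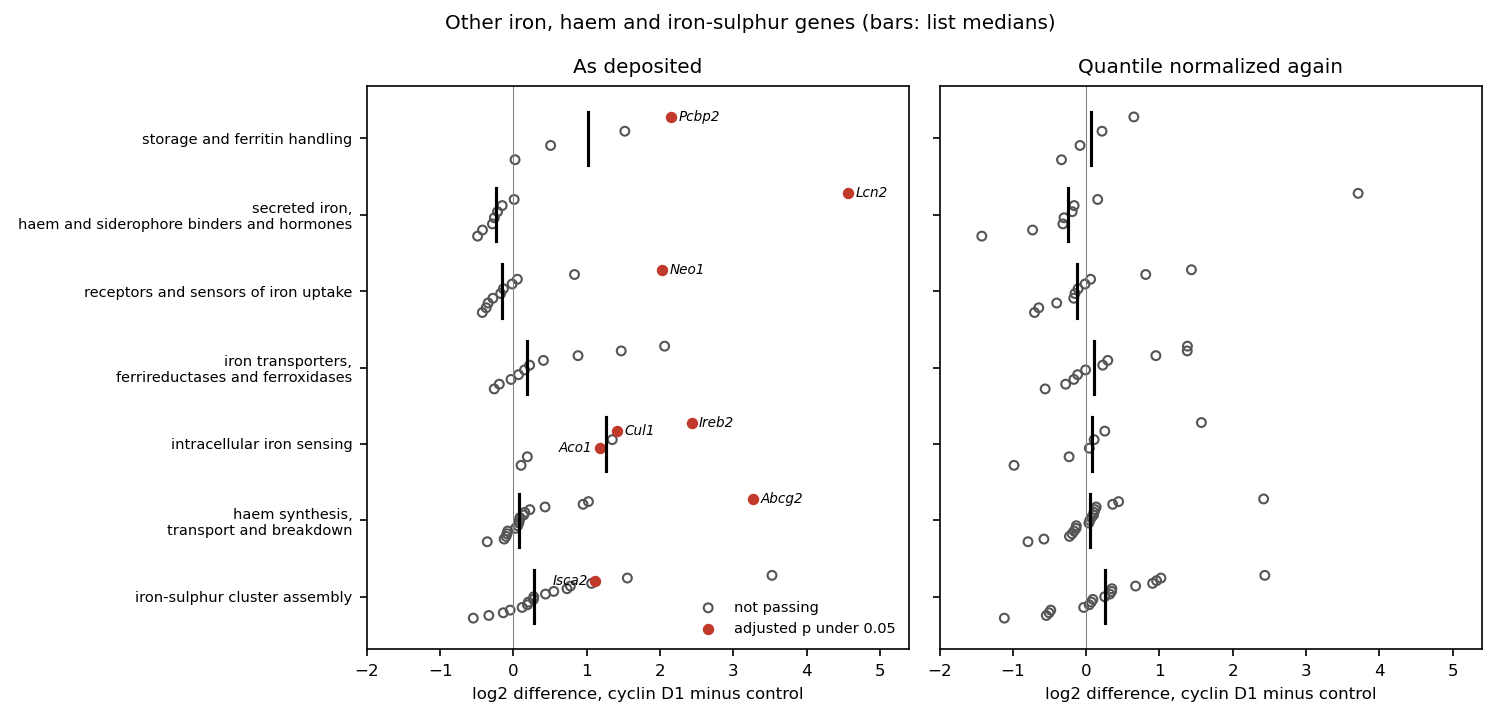
Log2 difference, cyclin D1 minus control, of 72 other genes of iron, haem and iron-sulphur metabolism by role, as deposited (left) and renormalized (right). Each point is a gene, filled red where the limma adjusted p was under 0.05, and vertical bars are the list medians. The 8 genes that passed are named on the left, and 0 passed on the right.

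Other cell types that express these genes were checked through their markers. Beside the higher values of Trf, Ltf, Cp and Fth1 stood those of the luminal and alveolar markers, and all 11 measured lay above the floor on every array. The 3 with the smallest p, Epcam, Elf5 and Csn3, rose by 2.49, 3.43 and 2.52 (limma adjusted p = 0.0184, 0.0192 and 0.0147). Renormalized, these 3 differed by 1.54, 2.58 and 1.14 and did not pass. Csn2 turned from 0.89 to -0.09 and Krt18 from 0.92 to -0.55. The median difference of the list was 1.44 as deposited and 0.88 renormalized. The part of these markers in the iron gene values was not tested. Hepatocyte markers bear on transferrin, ceruloplasmin and hepcidin, which liver makes in large amounts: 0 of 9 were called by limma in either direction, with 0 higher and 1 lower at an unadjusted p under 0.05. At that unadjusted threshold 3235 of all 19938 genes were higher and 2009 lower, the background for the marker counts below. Alb, albumin, averaged 2.17 ± 0.11 in cyclin D1 glands (SD, n = 3) and 2.27 ± 0.38 in control glands (SD, n = 2), near the floor of 1.97 to 2.52. The hepatocyte sum was 99.8 to 229 in cyclin D1 glands against 90.4 to 123 in control glands, and its brightest gene, Cyp2e1, is also expressed by fat cells. Macrophages recycle iron and express ferritin, ferroportin and ceruloplasmin, and 0 of 9 macrophage markers were called by limma. At an unadjusted p under 0.05, 3 were higher and 1 lower, and beside the background just given no change is read from these counts. The sum of the 9 was 89.1 to 177 in cyclin D1 glands against 69.2 to 70.6 in control glands. The highest macrophage sum was that of cyclin D1 replicate 1, the mouse with the highest Ftl1 and Slc40a1. That mouse also had the highest sums of the hepatocyte, adipocyte, endothelial and fibroblast lists, so this is not particular to macrophages. The luminal and basal sums were highest in cyclin D1 replicate 2. The part of any of these cell types in the Ftl1 and Slc40a1 values was not tested. Of 9 adipocyte markers 0 were called by limma and 0 had an unadjusted p under 0.05, with a sum of 445 to 1791 in cyclin D1 glands against 795 to 973 in control glands. Their median difference was 0.29 as deposited and -0.72 renormalized, where 2 of 9 were positive, 0 were called by limma and 1 was lower at an unadjusted p under 0.05. Renormalized, 1875 of all 19938 genes were lower at that threshold. Red cell markers were measured for 3 of 8 genes, with a sum of 17.3 to 21.7 in cyclin D1 glands against 20.3 to 20.8 in control glands. Of these, Klf1 lay at or below the floor in both controls, and Epb42 in 2 cyclin D1 glands and 1 control. The sum is therefore partly background, and nothing about red cells is read from it.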

How the data were processed

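RNA from mammary glands was measured on 1 Affymetrix array per mouse, and groups came from the sample titles. Per the submitters' processing notes the authors used Affymetrix Expression Console 1.1 and RMA, which background-corrects, quantile-normalizes and summarises probes. The deposited values are log2 expression per probe set; the log base was taken from their range, and the sources used here do not say which arrays were normalized together. Of 35556 probe sets, 21789 had 1 gene symbol in the platform annotation, 1621 several and 12146 none. For each of 19938 genes the probe set with the highest mean was used. limma 3.58.1 in R 4.3.3 (lmFit, eBayes; 3 residual and 2.39 prior degrees of freedom) compared the groups over all genes, two-sided, with Benjamini-Hochberg adjustment and a threshold of 0.05. The fit was tested on simulated data. No detection calls were used; a rough floor per array was the average of 1027 olfactory receptor genes, and where all arrays of the dimmer group lay at or under it, the difference is a bound. The number of arrays limits the precision. The members and lists were chosen with earlier results of these data known. Of each wider list, the genes that passed (at most the 4 with the smallest p) are named, or the 2 with the smallest p where fewer than 2 passed. Alternatives were renormalization, median centring, an intensity trend, a robust prior, array weights, removal of dim genes, averaging over the probe sets of a gene, the replicate number as a block and each array left out; chosen after seeing the data were a shared Ftl1 probe set and renormalization with control 1 left out. Lists of mammary basal, skeletal muscle, endothelial and fibroblast markers had 1, 0, 0 and 0 genes that rose and 0 that fell by limma (4, 0, 0 and 0 higher at an unadjusted p under 0.05). The basal list held 7 measured genes, and 3235 of all 19938 genes were higher at that unadjusted threshold.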

Additional observations from a re-analysis of the deposited data

How the results depend on the processing

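The median difference of the 10 members ran from 1.59 to 2.06 when each array was left out in turn, was 1.48 renormalized, and was 1.27 renormalized with control 1 left out. In 15 alternatives each member kept its sign, except Heph, at 0.031 with median centring, 0.13 renormalized and 0.072 renormalized without control 1. Some of the 15 could not turn a sign. The intensity trend, the robust prior, the removal of dim genes and the averaging over probe sets left every member's difference unchanged. The shared Ftl1 probe set could change Ftl1 only. The replicate block gave each member the same difference as leaving out cyclin D1 replicate 3, the only array with that number, so these are not separate checks of sign. Fth1 ranged from 2.35 to 5.10, Trf from 2.65 to 4.69, Cp from 1.97 to 4.77, Ltf from 3.27 to 4.51, Tfrc from 1.74 to 3.45, Hamp from -1.61 to -1.27, Slc40a1 from 0.43 to 0.98 and Ftl1 from 0.02 to 0.96. Over all genes limma called 1072 higher and 137 lower. The counts were 51 and 21 renormalized, 263 and 4 with array weights and 555 and 894 renormalized without control 1, and 622 were higher with an intensity trend. They ran from 0 to 1365 higher and from 0 to 1063 lower when each array was left out: both were 0 without control 1, cyclin D1 replicate 1 or cyclin D1 replicate 2, where 4973, 3568 and 3491 genes had an unadjusted p under 0.05. Of the wider iron genes 8 rose; 4 did with an intensity trend, 3 with array weights, 0 renormalized, from 0 to 6 with an array left out, and 5 rose while 4 fell renormalized without control 1. With the replicate number as a block, 1137 genes were higher and 10 lower, 8 wider iron genes were higher and the members' median was 1.89. Deviations from the group means correlated at r of -0.03 for replicate number 1 and 0.13 for number 2 across genes. With 2 controls, their deviations are equal and opposite, so these values cannot decide whether mice were paired. The sample titles give only a replicate number, and the numbers were not taken as pairs. The cause of these changes was not tested, and the fits with an array left out also had fewer arrays. Another background correction was not run, because the values used here were already corrected and summarised.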
